A study of Homo sapiens with 16 samples.

Results

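The OTU family groups deubiquitinases that share an ovarian tumour domain, and the results below concern OTUD5 and 9 further members of it. The 10 genes, OTUD5, OTUD1, OTUD3, OTUD4, OTUD6B, OTUD7B, OTUB1, OTUB2, YOD1 and ZRANB1, were taken by symbol from the 22916 genes of the deposited expression table, and every symbol was found. RNA was sequenced from HCT116, an established line of human colon cancer cells, in 4 groups of 4 libraries, 16 in all. Truncation cells carry an edited Rpn10, the proteasomal ubiquitin receptor encoded by PSMD4, without its ubiquitin interacting motif, and WT cells carry the label Control. Each genotype was reverse transfected with either OTUD5 siRNA, a mix of 4 siRNAs, or a scrambled siRNA (scramble below), both at 50 nM for 48 hours with Lipofectamine RNAiMAX. The groups were thus truncation OTUD5 siRNA, truncation scramble, WT OTUD5 siRNA and WT scramble, and all 4 were transfected. One siRNA mix was used, so loss of OTUD5 and any other action of the mix cannot be told apart. Whether the truncation line is 1 clone is not stated in the labels.

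Deubiquitinases cut ubiquitin from proteins and so oppose the ligases that attach it. OTU enzymes are cysteine proteases, and many of them prefer ubiquitin chains of particular linkages. OTUD5, also called DUBA, is known for removing ubiquitin from TRAF3 and thereby restraining type I interferon production, and for stabilising chromatin regulators during development. OTUB1 also acts without cutting, by binding ubiquitin-conjugating enzymes and holding them inactive.

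Library totals lay between 28777244 and 29645663 counts, and mitochondrial genes took 2.87 to 5.41% of them. Of 8 markers of colon epithelium and of this line, 7 had at least 10 counts in every library, and the 8 summed to 4870 to 5730 CPM in truncation OTUD5 siRNA, 4210 to 4530 CPM in truncation scramble, 4320 to 5200 CPM in WT OTUD5 siRNA and 4090 to 4580 CPM in WT scramble. The other one, VIL1 of the brush border, was near 0. KRT8 had the highest mean counts of the 8 in every group. After OTUD5 siRNA, mean counts of KRT8, KRT18, CDH1 and ELF3 were higher than after scramble in both genotypes. Those of EPCAM and CLDN4 were lower in both, and those of KRT19 were lower in truncation cells only. CDH1 had mean counts of 827.5 in truncation scramble and 1480.2 in WT scramble. Blood markers summed to at most 12.9 CPM and endothelial ones to at most 3.05 CPM in any library. A set of 6 fibroblast markers, led by COL1A1, summed to 33.9 to 56.0 CPM over the libraries, and its part in the results was not tested. WT OTUD5 siRNA replicate 3 had at least 1 count in 32264 genes, and the other libraries had one in 25626 to 27765. Within its group, WT OTUD5 siRNA replicate 2 was the most distant library, at a chi-square per degree of freedom of 18.5 to 23.7. Results that changed without these 2 libraries are given with and without them. The titles of the 4 truncation OTUD5 siRNA libraries say scramble, while their descriptions and treatment labels say OTUD5 siRNA, and OTUD5 had 566 to 681 counts there, against 2676 to 2847 in truncation scramble.

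Levels of different members were compared on the scale of TMM-scaled CPM (counts scaled for library size and composition) divided by kilobases of exon. After OTUD5 siRNA, OTUB1, which is specific for one of the commonest chain types, led in both genotypes, at 16.5 ± 0.859 CPM per kb in truncation cells and 16.8 ± 1.71 CPM per kb in WT cells, and OTUD4 was next. OTUD5 stood at 5.77 ± 0.415 CPM per kb in truncation cells, where it was 3rd and overlapped OTUD3. It ranked 6th in WT cells at 5.57 ± 0.571 CPM per kb and overlapped OTUD6B above it and OTUD7B below it. On this scale, the target of the siRNA was thus left at a level shared by several other members. At the bottom, OTUB2 lay below OTUD1, with OTUD1 at 2.82 ± 0.330 CPM per kb and OTUB2 at 1.80 ± 0.144 CPM per kb in truncation OTUD5 siRNA, and with OTUD1 at 2.77 ± 0.579 CPM per kb and OTUB2 at 1.93 ± 0.209 CPM per kb in WT OTUD5 siRNA.

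After scramble, OTUD5 had the highest level per kb of the 10 members in both genotypes. It stood at 26.4 ± 0.633 CPM per kb in truncation cells and 24.6 ± 0.886 CPM per kb in WT cells (SD, n = 4). OTUB1 came next at 19.1 ± 0.946 CPM per kb in truncation scramble and 17.9 ± 0.932 CPM per kb in WT scramble. At the bottom the order of OTUD1 and OTUB2 was the other way round, with OTUD1 lowest at 1.75 ± 0.0805 CPM per kb in truncation scramble and 2.08 ± 0.116 CPM per kb in WT scramble and OTUB2 just above it at 3.03 ± 0.0507 and 2.84 ± 0.0926 CPM per kb in the same groups. In WT scramble, the order was OTUD5, OTUB1, OTUD4, OTUD6B, OTUD3, YOD1, OTUD7B, ZRANB1, OTUB2 and OTUD1, and OTUD4 (8.998 to 11.1 CPM per kb) and OTUD6B (8.91 to 10.5 CPM per kb) were the only neighbours whose libraries overlapped. In truncation scramble, YOD1 stood above OTUD3 and overlapped it, and OTUD7B overlapped ZRANB1. These orders depend on the length used, the union of annotated exons. In CPM not divided by length, OTUD5 ranked 2nd or 3rd of the 10 members in every scramble library. By that measure it ranked 7th in truncation OTUD5 siRNA and 8th in WT OTUD5 siRNA.

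**Figure D1:**
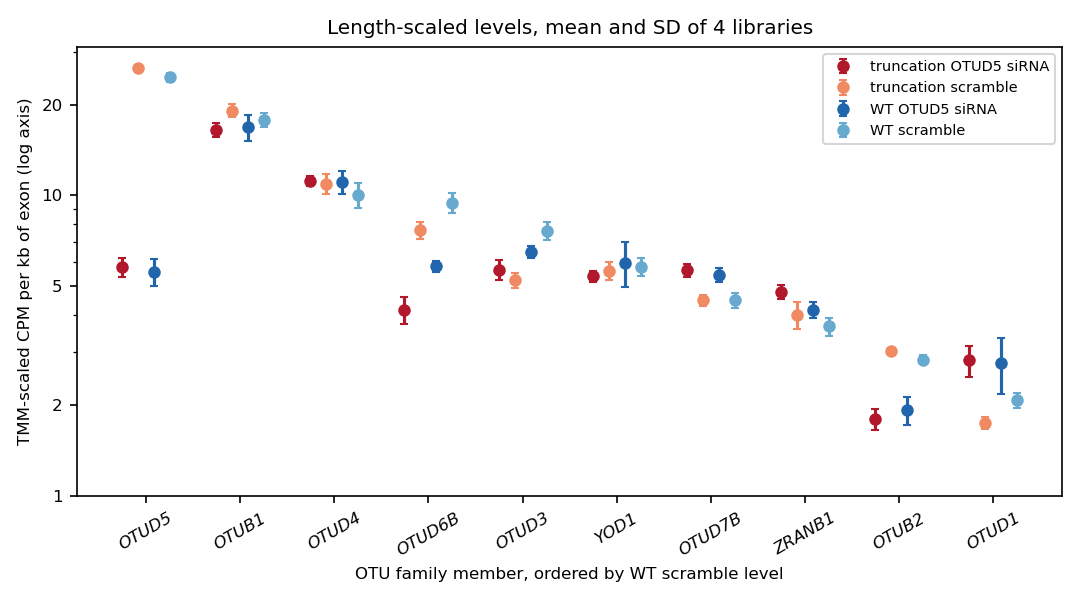
Level of each OTU family member on a log axis of TMM-scaled CPM per kilobase of exon, ordered from left to right by WT scramble, with points for the mean and bars for the SD of 4 libraries in truncation OTUD5 siRNA, truncation scramble, WT OTUD5 siRNA and WT scramble. OTUD5 leads after scramble and lies among the middle members after OTUD5 siRNA, at 5.77 CPM per kb in truncation cells and 5.57 CPM per kb in WT cells.

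The first comparison asked how far the siRNA mix lowered its target. OTUD5 (ENSG00000068308, minus strand of GRCh38 chrX:48922028-48958386) stood at 19.6, 19.3, 22.3 and 21.7 CPM in truncation OTUD5 siRNA, against 94.975, 91.7, 96.7 and 96.3 CPM in truncation scramble. The WT libraries had 19.4, 17.5, 21.1 and 22.2 CPM of OTUD5 after OTUD5 siRNA, against 90.2, 88.7, 83.9 and 91.0 CPM after scramble. Every siRNA library lay far below every scramble library of its genotype. Set against the mean of the scramble libraries, 20.7, 20.4, 23.5 and 22.9% of OTUD5 RNA remained in truncation cells, a mean of 21.9 ± 1.57% (SD, n = 4), and 21.9, 19.8, 23.8 and 25.04% in WT cells, a mean of 22.6 ± 2.32% (SD, n = 4). OTUD5 fell by 2.16 on the log2 scale in truncation cells (95% interval -2.30 to -2.02, adjusted p = 1.91e-17) and fell by 2.13 in WT cells (95% interval -2.28 to -1.99, adjusted p = 1.13e-16). By p-value it ranked 2nd of 17104 tested genes in truncation cells and 1st in WT cells, while its fold change was the 50th lowest in truncation cells and the 26th lowest in WT cells. The difference of the 2 knockdowns, truncation minus WT, was -0.03 ± 0.10 on the log2 scale (SE, 95% interval -0.23 to 0.17, adjusted p = 0.912). With bulk RNA, fewer cells that carry a transcript and less of it per cell cannot be told apart.

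**Figure D2:**
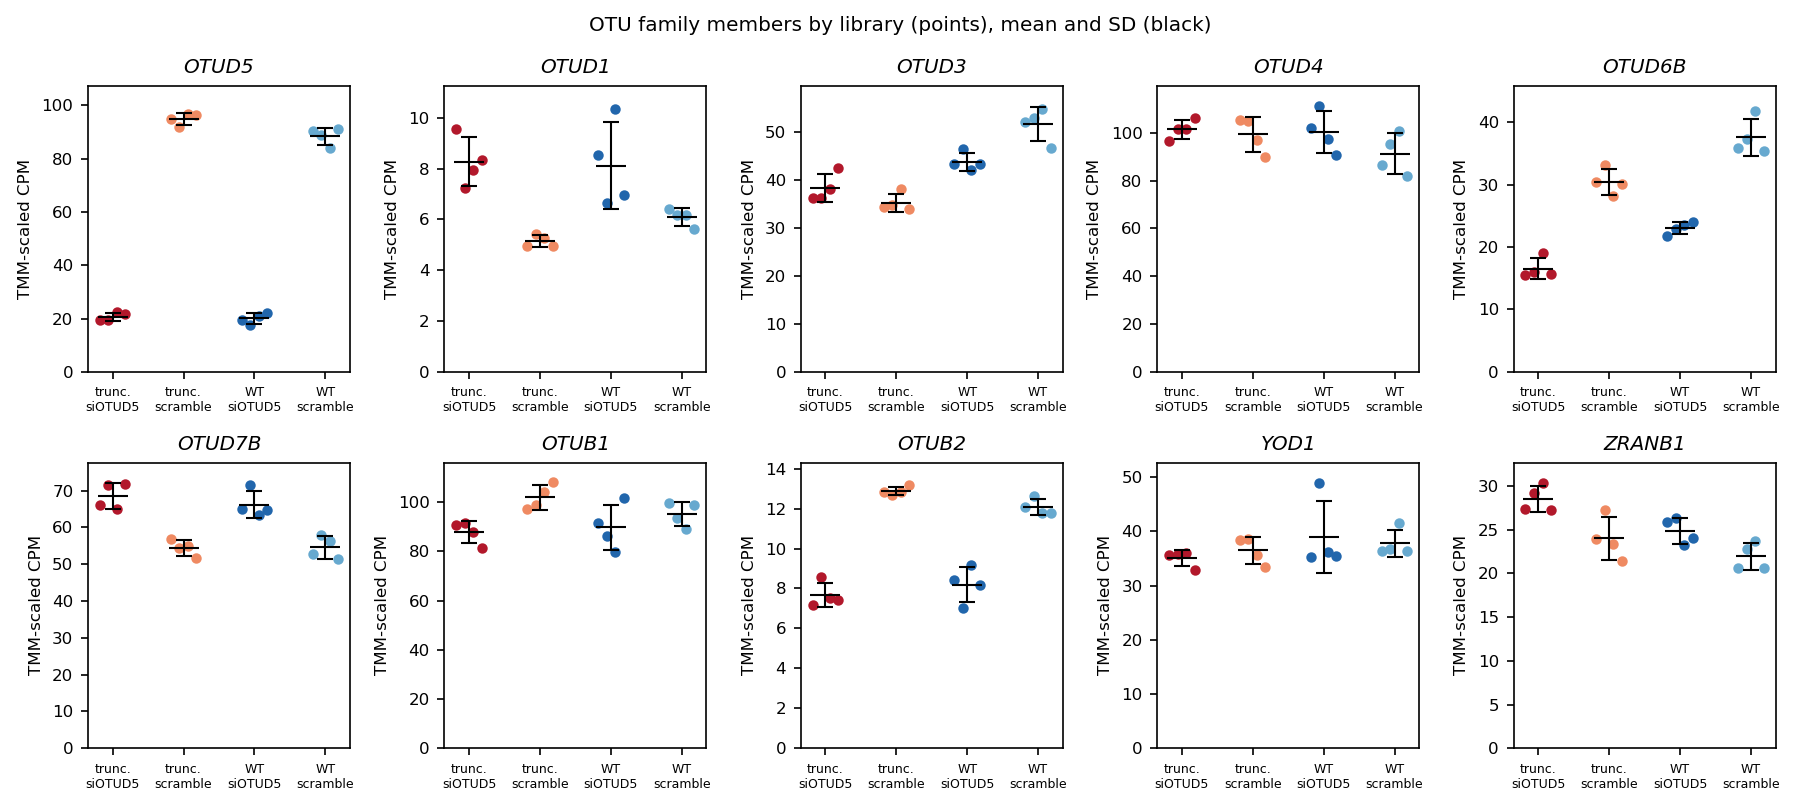
TMM-scaled CPM of the 10 members in each of 16 libraries (points), with the mean and SD of each group in black, for truncation OTUD5 siRNA, truncation scramble, WT OTUD5 siRNA and WT scramble from left to right. OTUD5 lies between 17.5 and 22.3 CPM in the 8 siRNA libraries and between 83.9 and 96.7 CPM in the 8 scramble libraries, and OTUD6B and OTUB2 are also lower after OTUD5 siRNA in both genotypes.

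The next comparison asked whether other members responded when OTUD5 was depleted. All 10 members passed the filter on low counts, with at least 141 counts in any library. In truncation cells 3 members were higher and 4 were lower after OTUD5 siRNA than after scramble at an adjusted p under 0.05, OTUD5 included, beside 28.7% of all tested genes higher and 28.1% lower (56.7% in either direction). In WT cells also 3 were higher and 4 were lower, beside 25.2% of all tested genes higher and 25.1% lower (50.3% in either direction). With so many genes called, a count of members near these shares is not a result about the family. The median log2 fold change of the 10 members was 0.02 in truncation cells, beside 0.02 over all tested genes, and -0.01 in WT cells, beside 0.01 over all tested genes. Without OTUD5 the largest change was that of OTUD6B in both genotypes. The responses in the 2 genotypes come from different libraries, whereas the siRNA, genotype and interaction comparisons share libraries with each other.

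**Figure D3:**
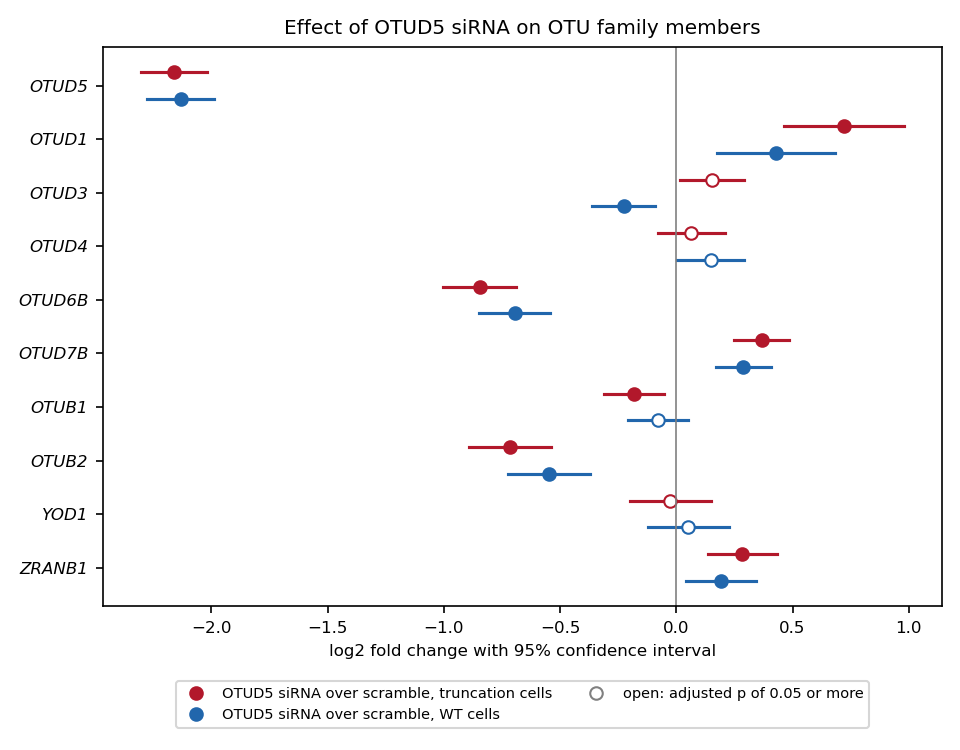
Log2 fold change of each member after OTUD5 siRNA over scramble, with its 95% confidence interval, in truncation cells (upper row of each pair) and in WT cells (lower row), where filled points have an adjusted p under 0.05. OTUD5 lies near -2, OTUD6B and OTUB2 lie below 0 in both genotypes, and OTUD1, OTUD7B and ZRANB1 lie above 0 in both.

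Besides the target, OTUD6B and OTUB2 fell in both genotypes. OTUD6B (chr8:91070196-91087095, plus strand) encodes a deubiquitinase linked to translation initiation and to proteasome assembly. It stood at 15.4, 16.04, 19.1 and 15.6 CPM in truncation OTUD5 siRNA, against 30.5, 33.1, 28.1 and 30.1 CPM in truncation scramble. In WT cells it stood at 21.8, 22.8, 23.5 and 24.0 CPM after OTUD5 siRNA, against 35.8, 37.3, 41.8 and 35.4 CPM after scramble. The groups did not overlap in either genotype, and the 4 truncation OTUD5 siRNA libraries were the lowest of all 16. OTUD6B fell by 0.85 ± 0.08 on the log2 scale in truncation cells (SE, adjusted p = 8.1e-10) and fell by 0.69 ± 0.07 in WT cells (SE, adjusted p = 2.48e-08).

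OTUB2 (chr14:94026329-94048930, plus strand) is the closest relative of OTUB1 and is known for tuning ubiquitin signals at broken DNA. Its level was 7.17, 8.56, 7.50 and 7.44 CPM in truncation OTUD5 siRNA, against 12.8, 12.7, 12.8 and 13.2 CPM in truncation scramble. The WT libraries had 8.43, 7.02, 9.16 and 8.15 CPM after OTUD5 siRNA, against 12.1, 12.6, 11.8 and 11.8 CPM after scramble. All 8 siRNA libraries were lower than all 8 scramble libraries. OTUB2 fell by 0.71 ± 0.08 on the log2 scale in truncation cells (SE, adjusted p = 9.67e-08) and fell by 0.55 ± 0.08 in WT cells (SE, adjusted p = 7.75e-06). Of its exon bases, 15.1% overlap DDX24 on the opposite strand. The labels do not say whether the authors counted by strand, so reads from the overlapped stretch cannot be told apart. DDX24 rose by 0.13 in truncation cells and by 0.12 in WT cells on the log2 scale, opposite to OTUB2.

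OTUB1 (chr11:63985853-64001811, plus strand) passed the test in truncation cells only, where it fell by 0.18 ± 0.06 on the log2 scale (SE, adjusted p = 0.0154). It stood at 90.7, 91.5, 88.0 and 81.4 CPM in truncation OTUD5 siRNA, below each of 97.0, 98.8, 104.1 and 108.1 CPM in truncation scramble. With upper-quartile scaling this value was -0.13 and its adjusted p was 0.0905. In WT cells OTUB1 averaged 89.7 ± 9.13 CPM after OTUD5 siRNA and 95.2 ± 4.98 CPM after scramble (SD, n = 4), and the groups overlapped (log2 fold change -0.08, adjusted p = 0.318). The difference between the genotypes in this response was -0.10 ± 0.09 (SE, adjusted p = 0.56). AP000721.1 on the same strand overlaps 7.2% of the exon bases of OTUB1 and had 0 counts in every library. How reads of that stretch were counted is not stated.

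OTUD1, OTUD7B and ZRANB1 rose in both genotypes. OTUD1 (chr10:23439458-23442390, plus strand), a regulator of antiviral and oxidative stress signalling, stood at 9.55, 7.23, 7.96 and 8.36 CPM in truncation OTUD5 siRNA, against 4.94, 5.41, 5.26 and 4.95 CPM in truncation scramble. WT libraries held 8.53, 6.64, 10.3 and 6.97 CPM after OTUD5 siRNA, against 6.41, 6.18, 6.17 and 5.61 CPM after scramble. The groups were apart in both genotypes, widely in truncation cells and narrowly in WT cells. OTUD1 rose by 0.72 ± 0.12 on the log2 scale in truncation cells (SE, adjusted p = 2.41e-05) and by 0.43 ± 0.12 in WT cells (SE, adjusted p = 0.0053). Its 20.9% coefficient of variation in WT OTUD5 siRNA was the largest of any member and group, and without replicate 3, the highest of that group, the rise was 0.27 with an adjusted p of 0.044.

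OTUD7B (chr1:149937812-150010676, minus strand), also called Cezanne, trims chains built by the mitotic ubiquitin ligase and acts on TRAF3 in non-canonical NF-kB signalling. It stood at 66.2, 71.5, 64.9 and 71.8 CPM in truncation OTUD5 siRNA, against 56.8, 54.4, 55.0 and 51.6 CPM in truncation scramble. The WT values were 64.9, 71.5, 63.5 and 64.8 CPM after OTUD5 siRNA, against 52.7, 58.0, 56.2 and 51.3 CPM after scramble. No siRNA library reached down to a scramble library in either genotype. OTUD7B rose by 0.37 ± 0.06 on the log2 scale in truncation cells (SE, adjusted p = 6.59e-06) and by 0.29 ± 0.06 in WT cells (SE, adjusted p = 0.000187).

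ZRANB1 (chr10:124942123-124988189, plus strand), also called TRABID, is known for cutting atypical ubiquitin linkages. It averaged 28.5 ± 1.502 CPM in truncation OTUD5 siRNA and 24.0 ± 2.44 CPM in truncation scramble (SD, n = 4), with truncation scramble replicate 2 at 27.3 CPM inside the range of the siRNA libraries. In WT cells it averaged 24.9 ± 1.48 CPM after OTUD5 siRNA and 21.9 ± 1.55 CPM after scramble, and the groups again overlapped. The rise was 0.28 ± 0.07 on the log2 scale in truncation cells (SE, adjusted p = 0.00158) and 0.19 ± 0.07 in WT cells (SE, adjusted p = 0.0313). The WT call was lost when WT OTUD5 siRNA replicate 1 or 2 or WT scramble replicate 1 or 4 was left out, and without WT OTUD5 siRNA replicates 2 and 3 together, with adjusted p of 0.073 to 0.0973. CTBP2, a transcriptional corepressor gene on the opposite strand, overlaps 57.0% of the exon bases of ZRANB1, so reads of the 2 genes cannot be told apart there. CTBP2 rose by 0.11 in truncation cells and by 0.12 in WT cells on the log2 scale. AL731577.2 on the same strand overlaps 7.09% of the exon bases of ZRANB1 and was not called for the siRNA in either genotype.

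OTUD4 and YOD1 did not pass the test in either genotype. OTUD4 (chr4:145110838-145180161, minus strand), a scaffold for repair of alkylated DNA, averaged 101.4 ± 4.02 CPM in truncation OTUD5 siRNA and 99.3 ± 7.36 CPM in truncation scramble (log2 fold change 0.06, 95% interval -0.08 to 0.21, adjusted p = 0.446). Its WT mean was 100.3 ± 8.69 CPM after OTUD5 siRNA and 91.2 ± 8.59 CPM after scramble (SD, n = 4), with a log2 fold change of 0.15 and an adjusted p of 0.0804. Leaving out 1 library gave WT values between 0.10 without WT OTUD5 siRNA replicate 2 (adjusted p = 0.259) and 0.20 without WT scramble replicate 3 (adjusted p = 0.0241), and without WT OTUD5 siRNA replicate 4 the adjusted p was 0.0222. Without WT OTUD5 siRNA replicates 2 and 3 the value was 0.07 (adjusted p = 0.481). ABCE1 on the opposite strand overlaps 3.04% of its exon bases, and OTUD4P1 on chromosome 12 is a processed pseudogene of it, so part of its reads is uncertain. ABCE1 rose by 0.26 on the log2 scale in WT cells (adjusted p = 0.0016). In truncation cells its value was 0.12 (adjusted p = 0.11).

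YOD1 (chr1:207043849-207052980, minus strand) works with the segregase VCP when proteins are pulled from the endoplasmic reticulum for degradation. It averaged 35.1 ± 1.52 CPM in truncation OTUD5 siRNA and 36.5 ± 2.50 CPM in truncation scramble (log2 fold change -0.03, 95% interval -0.20 to 0.15, adjusted p = 0.817). In WT cells it stood at 35.3, 48.9, 36.1 and 35.4 CPM after OTUD5 siRNA, against 36.4, 36.8, 41.5 and 36.4 CPM after scramble. WT OTUD5 siRNA replicate 2 was the highest of all 16 libraries, and the groups overlapped. The log2 fold change was 0.05 (95% interval -0.12 to 0.23, adjusted p = 0.635), and -0.07 (adjusted p = 0.388) without WT OTUD5 siRNA replicate 2. PFKFB2 on the opposite strand overlaps 4.83% of its exon bases, and this gene of glycolytic control fell by 0.75 in truncation cells and fell by 0.89 in WT cells on the log2 scale.

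The promoters of 3 members that moved the same way in both genotypes are printed 5′ to 3′ to show what lies at the start of 2 genes that rose, OTUD1 and OTUD7B, and 1 that fell, OTUB2. Each window, from RefSeq on GRCh38.p14, runs from 250 bases before to 50 after the RefSeq start, and that start can differ from the gene limits given above. The windows are chr10:23438825-23439124 on the plus strand for OTUD1, chr1:150010677-150010976 on the minus strand for OTUD7B and chr14:94026090-94026389 on the plus strand for OTUB2. Capitals mark every match, on either strand, to the CCAAT box (CCAAT), the GC box (GGGCGG), the E-box of the USF and MYC type (CACGTG), the ETS site (CCGGAAGT), the cAMP response element (TGACGTCA) and the AP-1 site (TGANTCA).
OTUD1: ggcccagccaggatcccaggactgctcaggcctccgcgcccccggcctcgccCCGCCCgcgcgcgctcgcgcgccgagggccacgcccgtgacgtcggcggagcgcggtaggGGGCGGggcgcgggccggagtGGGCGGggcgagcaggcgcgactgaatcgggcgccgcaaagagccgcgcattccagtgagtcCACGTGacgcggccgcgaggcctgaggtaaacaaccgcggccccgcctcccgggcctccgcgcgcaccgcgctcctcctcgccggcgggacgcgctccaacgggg
OTUD7B: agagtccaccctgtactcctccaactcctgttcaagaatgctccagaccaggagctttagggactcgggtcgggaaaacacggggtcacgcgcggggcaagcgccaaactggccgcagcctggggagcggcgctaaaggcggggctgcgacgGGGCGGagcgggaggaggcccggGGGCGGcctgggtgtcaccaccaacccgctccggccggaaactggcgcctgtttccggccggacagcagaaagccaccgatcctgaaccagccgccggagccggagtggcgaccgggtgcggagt
OTUB2: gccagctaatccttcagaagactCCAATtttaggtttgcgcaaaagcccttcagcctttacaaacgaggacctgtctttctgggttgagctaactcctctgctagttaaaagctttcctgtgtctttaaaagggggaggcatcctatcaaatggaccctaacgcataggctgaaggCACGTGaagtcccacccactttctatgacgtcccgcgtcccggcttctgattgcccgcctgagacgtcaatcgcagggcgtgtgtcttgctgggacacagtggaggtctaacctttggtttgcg
The OTUD1 window holds 3 GC boxes and 1 E-box, the OTUD7B window 2 GC boxes, and the OTUB2 window 1 CCAAT box and 1 E-box. Of 35116 RefSeq promoter windows, 45% hold a GC box, 34.6% a CCAAT box and 7.26% this E-box. The ETS site is in 4.14% of them, the AP-1 site in 7.71% and the cAMP response element in 1.85%, and none of these 3 letter strings is in the printed windows. Among the 9 members with a window, the E-box was found in OTUD1, which rose, and in OTUB2, which fell. OTUD5 itself has 2 windows, of which 1 holds 1 CCAAT box, 1 GC box and 1 ETS site. These matches describe letters and say nothing about binding.

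The next question was whether the members differed between truncation and WT cells under the same siRNA. In OTUD5 siRNA cells 1 member was higher and 2 were lower in truncation cells than in WT cells, beside 21.9% of all tested genes higher and 23.6% lower (45.5% in either direction). In scramble cells 0 were higher and 2 were lower, beside 21.6% of all tested genes higher and 22.4% lower (44.0% in either direction). The median size of the log2 fold change over the 10 members was 0.08 in OTUD5 siRNA cells, beside 0.25 over all tested genes, and 0.10 in scramble cells, beside 0.24 over all tested genes. OTUD3 and OTUD6B were the 2 lower members under both siRNAs.

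OTUD6B was lower in truncation cells by the per-library values given above, fell by 0.47 ± 0.08 on the log2 scale in OTUD5 siRNA cells (SE, adjusted p = 1.82e-05) and fell by 0.32 ± 0.07 in scramble cells (SE, adjusted p = 0.000901). The groups did not overlap in either case. The genotype and siRNA differences had the same sign, and their interaction was -0.15 ± 0.11 (SE, adjusted p = 0.46). ZRANB1 was higher in truncation cells after OTUD5 siRNA, at 27.4, 29.2, 30.3 and 27.2 CPM, against 25.9, 26.3, 23.3 and 24.0 CPM in WT cells. That rise of 0.21 ± 0.07 on the log2 scale (SE, adjusted p = 0.0204) lost its call when truncation OTUD5 siRNA replicate 2 or 3, WT OTUD5 siRNA replicate 3 or 4, or WT OTUD5 siRNA replicates 2 and 3 together were left out, with adjusted p of 0.0571 to 0.0838. After scramble, the value for ZRANB1 was 0.12 ± 0.07 (SE, adjusted p = 0.211).

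OTUD5 was not called between genotypes. After OTUD5 siRNA the difference was 0.06 ± 0.07 on the log2 scale (SE, adjusted p = 0.528), and the groups overlapped. Its 4 truncation scramble libraries, at 91.7 to 96.7 CPM, lay above its 4 WT scramble libraries, at 83.9 to 91.0 CPM, by 0.09 ± 0.06 on the log2 scale (SE, adjusted p = 0.283). OTUD1 libraries of truncation scramble cells, at 4.94 to 5.41 CPM, lay below those of WT scramble cells, at 5.61 to 6.41 CPM, with a log2 fold change of -0.26 and an adjusted p of 0.107. OTUB2 stood at 12.7 to 13.2 CPM in truncation scramble and at 11.8 to 12.6 CPM in WT scramble, with a log2 fold change of 0.08 and an adjusted p of 0.46. For OTUD4, OTUD7B, OTUB1 and YOD1 the groups overlapped after scramble, and neither siRNA gave a call.

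**Figure D4:**
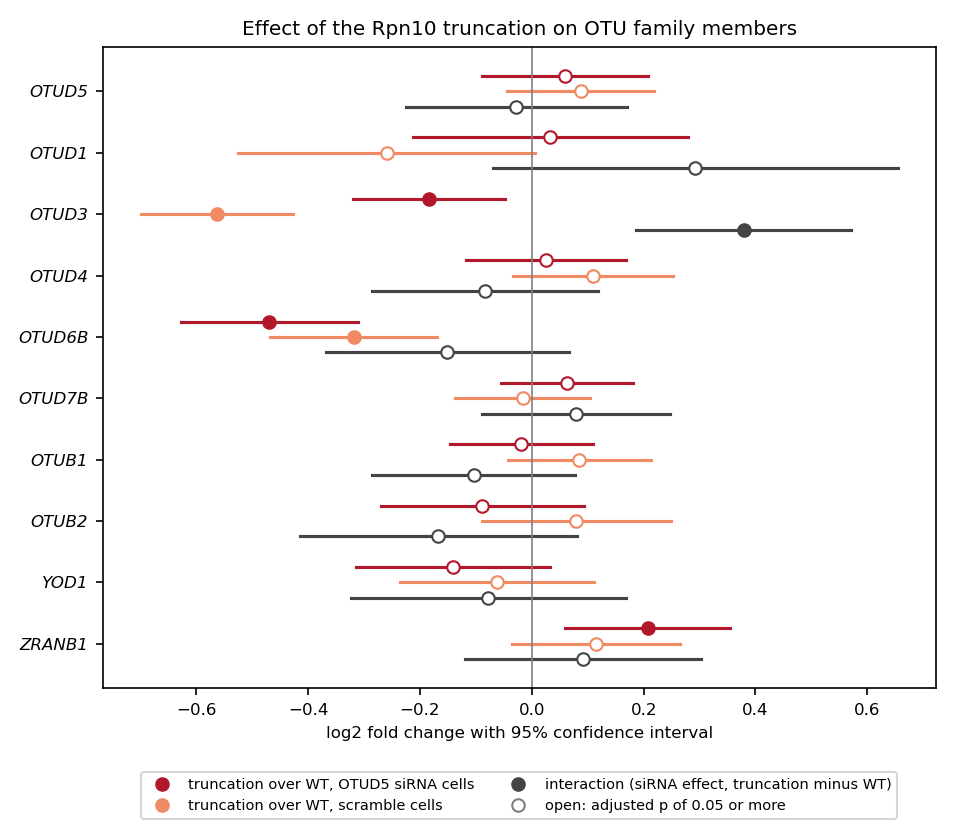
Log2 fold change of each member in truncation over WT cells after OTUD5 siRNA (top row), the same after scramble (middle row) and the difference of the siRNA effects, truncation less WT (bottom row), each with its 95% confidence interval, where filled points have an adjusted p under 0.05. OTUD3 is the only member whose interaction, at 0.38, is filled, and OTUD6B lies below 0 under both siRNAs.

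OTUD3 was the member whose siRNA response differed between the genotypes. OTUD3 lies on the plus strand of chr1:19882513-19912945 and encodes a deubiquitinase. It stood at 36.2, 36.3, 38.1 and 42.5 CPM in truncation OTUD5 siRNA, against 34.3, 34.8, 38.1 and 33.9 CPM in truncation scramble. In WT cells it stood at 43.4, 46.6, 42.0 and 43.4 CPM after OTUD5 siRNA, against 52.1, 52.9, 54.9 and 46.6 CPM after scramble. In WT cells every siRNA library lay below every scramble library, though WT OTUD5 siRNA replicate 2 and WT scramble replicate 4 nearly met, whereas in truncation cells the groups overlapped. OTUD3 fell by 0.23 ± 0.07 on the log2 scale in WT cells (SE, adjusted p = 0.00548). In truncation cells the value was 0.15 ± 0.07 (SE, adjusted p = 0.0525), which did not pass the threshold. Over the alternatives it lay between 0.07 without truncation OTUD5 siRNA replicate 4 (adjusted p = 0.355) and 0.21 with upper-quartile scaling (adjusted p = 0.0104), and without truncation scramble replicate 3 its adjusted p was 0.0496.

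The interaction for OTUD3, its log2 fold change in truncation less the one in WT, was 0.38 ± 0.09 on the log2 scale (SE, 95% interval 0.19 to 0.57, adjusted p = 0.016). Of the 10 members 1 was called in this comparison, beside 5.69% of all tested genes (2.05% higher and 3.65% lower). Over all genes 350 interactions were higher and 624 lower, and with upper-quartile scaling 502 were higher and 397 lower. Without WT OTUD5 siRNA replicate 2 the interactions called were 533 higher and 1128 lower, and without WT OTUD5 siRNA replicates 2 and 3 they were 358 higher and 1284 lower. The OTUD3 interaction lay between 0.30 and 0.43 over 24 alternative settings, with adjusted p of 0.00594 to 0.0496. Read by genotype, OTUD3 fell by 0.18 ± 0.07 in truncation over WT cells after OTUD5 siRNA (SE, adjusted p = 0.0246) and fell by 0.56 ± 0.07 after scramble (SE, adjusted p = 1.72e-07). The smaller of these calls was lost without truncation OTUD5 siRNA replicate 1 or 2, without WT OTUD5 siRNA replicate 2, and without WT OTUD5 siRNA replicates 2 and 3 together, with adjusted p of 0.0579 to 0.0842. The interactions of OTUD1 (0.29 ± 0.18, adjusted p = 0.372) and OTUB2 (-0.17 ± 0.12, adjusted p = 0.473) did not pass the test.

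Summed over the 10 members, the family held 413.0 ± 5.87 CPM in truncation OTUD5 siRNA and 494.9 ± 8.38 CPM in truncation scramble (SD, n = 4). In WT cells the sum was 423.1 ± 15.9 CPM after OTUD5 siRNA and 496.5 ± 13.5 CPM after scramble. Without OTUD5, the other 9 members summed to 392.2 ± 5.48 CPM in truncation OTUD5 siRNA and 400.0 ± 9.94 CPM in truncation scramble, and to 403.1 ± 17.6 CPM in WT OTUD5 siRNA and 408.0 ± 16.3 CPM in WT scramble. In CPM not divided by length, the sum over these 9 therefore differed by less than 1 SD of the scramble libraries within each genotype. By that measure OTUD5 made up 5.02% of the family sum in truncation OTUD5 siRNA, 19.2% in truncation scramble, 4.75% in WT OTUD5 siRNA and 17.8% in WT scramble. These sums and shares weigh long genes more than the levels per kb do. No sum per kb was made, and it can give another picture.

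Of 7 other genes with an OTU domain, 6 were tested, and the seventh, OTUD6A, had 0 to 2 counts in any library. In truncation cells 2 were higher and 2 lower after OTUD5 siRNA, beside 56.7% of all tested genes called in either direction, and in WT cells 3 were higher and 2 lower, beside 50.3%. OTUD7A, the closest relative of OTUD7B, stood at 1.39, 1.43, 1.70 and 1.99 CPM in truncation OTUD5 siRNA, against 0.525, 0.754, 0.204 and 0.346 CPM in truncation scramble. WT libraries held 3.94, 2.38, 5.06 and 3.76 CPM after OTUD5 siRNA, against 2.61, 1.99, 2.15 and 1.79 CPM after scramble. Its counts were low, 6 to 154 per library, and truncation scramble was the lowest group. OTUD7A rose by 1.86 ± 0.30 on the log2 scale after OTUD5 siRNA in truncation cells (SE, adjusted p = 8.99e-06) and by 0.84 ± 0.22 in WT cells (SE, adjusted p = 0.00235), where the groups overlapped. It fell by 1.21 ± 0.22 in truncation over WT cells after OTUD5 siRNA (SE, adjusted p = 8.83e-05) and fell by 2.23 ± 0.29 after scramble (SE, adjusted p = 9e-07). Its interaction was 1.02 ± 0.38 (SE, adjusted p = 0.113). With a pseudocount of 0.5, limma on the deposited CPM gave 1.18 for the siRNA in truncation cells, -1.49 for the genotype after scramble and 0.51 for the interaction.

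OTULIN, which removes linear ubiquitin chains, fell by 0.51 on the log2 scale in truncation cells (27.5 ± 1.89 CPM after OTUD5 siRNA and 40.1 ± 1.51 CPM after scramble) and fell by 0.34 in WT cells (29.7 ± 1.26 CPM after OTUD5 siRNA and 37.8 ± 2.21 CPM after scramble; SD, n = 4). Its catalytically inactive relative OTULINL fell too, by 0.71 in truncation cells and by 0.47 in WT cells, and was also lower in truncation than in WT cells, at -0.81 after OTUD5 siRNA and -0.57 after scramble. TNFAIP3, an inhibitor of NF-kB signalling, rose by 0.42 in truncation cells (10.4 ± 0.444 CPM after OTUD5 siRNA and 7.97 ± 0.678 CPM after scramble) and by 0.34 in WT cells (8.09 ± 0.845 CPM after OTUD5 siRNA and 6.41 ± 0.517 CPM after scramble). It was higher in truncation than in WT cells as well, by 0.37 after OTUD5 siRNA and by 0.30 after scramble. VCPIP1, a VCP-binding enzyme of Golgi reassembly, passed the test in WT cells (0.20, adjusted p = 0.0267) and not in truncation cells (0.15, adjusted p = 0.0857). Its WT call was lost without WT OTUD5 siRNA replicate 1 or 3, or WT scramble replicate 1 or 4, and without WT OTUD5 siRNA replicates 2 and 3 together, with adjusted p of 0.0562 to 0.223. ALG13, a glycosyltransferase subunit with an OTU domain, was at 22.4 to 25.2 CPM in every library and was not called.

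**Figure D5:**
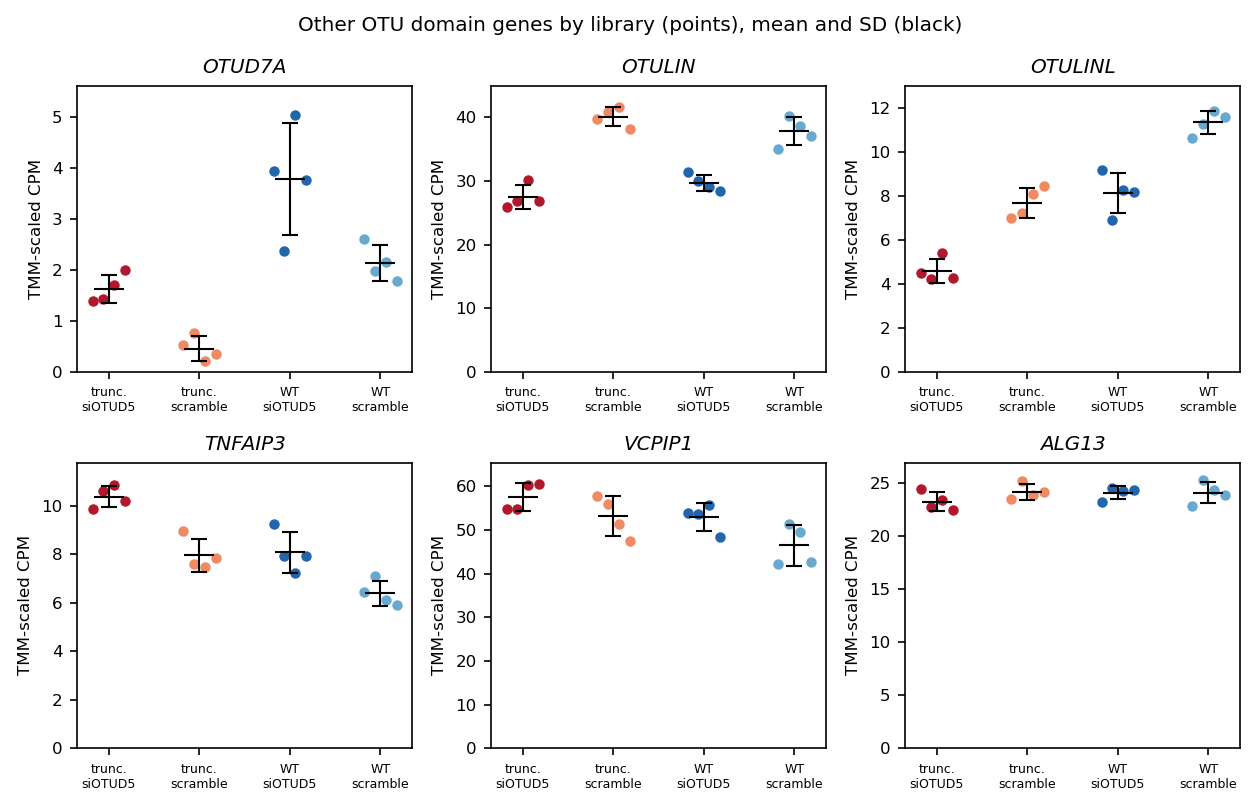
TMM-scaled CPM of the 6 tested OTU domain genes outside the 10 members in each of 16 libraries (points), with the mean and SD of each group in black, for truncation OTUD5 siRNA, truncation scramble, WT OTUD5 siRNA and WT scramble from left to right. OTUD7A is lowest in truncation scramble, at 0.204 to 0.754 CPM, and OTULIN and OTULINL are lower after OTUD5 siRNA in both genotypes.

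Outside the OTU family, a list of 22 deubiquitinases and their relatives that are not of the USP family had 20 tested genes. In truncation cells 7 were higher and 6 lower after OTUD5 siRNA, beside 56.7% of all tested genes called in either direction, and in WT cells 6 were higher and 6 lower, beside 50.3%, so these counts are near the background. The median log2 fold change was 0.04 in truncation cells and 0.01 in WT cells. The 3 called genes of largest change were MINDY1, ATXN3 and PSMD14 in truncation cells, and MINDY1, ATXN3 and JOSD2 in WT cells. MINDY1, which trims long chains from their ends, fell by 1.32 ± 0.18 on the log2 scale in truncation cells and fell by 0.96 ± 0.19 in WT cells, with 1.19 ± 0.136 CPM in truncation OTUD5 siRNA, 3.06 ± 0.422 CPM in truncation scramble, 1.05 ± 0.225 CPM in WT OTUD5 siRNA and 2.06 ± 0.405 CPM in WT scramble. ATXN3, the Machado-Joseph disease protein, rose by 0.84 ± 0.06 in truncation cells (32.3 ± 0.573 CPM after OTUD5 siRNA and 18.5 ± 0.833 CPM after scramble) and by 0.67 ± 0.06 in WT cells (31.1 ± 2.02 CPM after OTUD5 siRNA and 19.7 ± 0.877 CPM after scramble). PSMD14, the deubiquitinase of the proteasome lid, fell by 0.69 ± 0.05 in truncation cells and by 0.51 ± 0.055 in WT cells. JOSD2, a relative of ATXN3, fell by 0.54 ± 0.08 in truncation cells and by 0.58 ± 0.09 in WT cells. None of the 20 tested genes had a called interaction, beside 5.69% of all tested genes, so this count is near the background.

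A list of 18 reported partners and substrates of OTUD5 had 4 genes higher and 7 lower in truncation cells after OTUD5 siRNA, beside 56.7% of all tested genes called, and 4 higher and 5 lower in WT cells, beside 50.3%. These counts are near the background and are no result about the list. The median log2 fold change was -0.02 in truncation cells and 0.01 in WT cells. PDCD5 encodes an apoptosis-linked protein that OTUD5 is reported to stabilise, and protein was not measured here. PDCD5 RNA had the largest change of the list in both genotypes. It stood at 29.1 ± 2.38 CPM in truncation OTUD5 siRNA and 76.5 ± 3.58 CPM in truncation scramble, and at 41.4 ± 3.52 CPM in WT OTUD5 siRNA and 84.3 ± 4.54 CPM in WT scramble (SD, n = 4). PDCD5 fell by 1.36 ± 0.07 on the log2 scale in truncation cells and fell by 1.02 ± 0.07 in WT cells, with an interaction of -0.34 ± 0.09 (SE, adjusted p = 0.0292). That interaction was not called with upper-quartile scaling, nor without truncation OTUD5 siRNA replicate 4, WT OTUD5 siRNA replicate 4 or WT scramble replicate 2, with adjusted p of 0.0512 to 0.0741. STING1, the adaptor of cytosolic DNA sensing, fell by 0.82 ± 0.10 in truncation cells and fell by 0.69 ± 0.10 in WT cells. The histone deacetylase HDAC2 fell by 0.71 ± 0.06 in truncation cells and by 0.49 ± 0.06 in WT cells. CSNK2B, the regulatory subunit of casein kinase, fell by 0.38 ± 0.12 in truncation cells and by 0.56 ± 0.12 in WT cells.

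A list of 18 reported partners of the other OTU enzymes had 8 genes higher and 6 lower in truncation cells after OTUD5 siRNA, beside 56.7% of all tested genes called, and 7 higher and 5 lower in WT cells, beside 50.3%. Its median log2 fold change was 0.08 in truncation cells and 0.11 in WT cells. UBE2N, the conjugating enzyme held inactive by OTUB1, fell by 0.67 ± 0.06 on the log2 scale in truncation cells and fell by 0.54 ± 0.06 in WT cells. SHARPIN, a subunit of the ligase that builds linear chains, fell by 0.69 ± 0.07 in truncation cells and by 0.44 ± 0.07 in WT cells. RNF31, the catalytic subunit of that ligase, was called higher in truncation cells (1.28 ± 0.32, adjusted p = 0.00123) on 30 to 57 counts per library after OTUD5 siRNA and 14 to 22 after scramble. Of its exon bases, 34.8% overlap AL136295.5 on the same strand and 4.34% overlap PSME2 on the opposite strand, so its counts are uncertain. Its log2 fold change in truncation cells from limma on the deposited CPM was 0.78. In WT cells RNF31 was not called (0.15 ± 0.31, adjusted p = 0.727), and the groups overlapped. TRAF6 rose by 0.56 ± 0.09 in truncation cells and by 0.67 ± 0.09 in WT cells. The ligase ITCH rose by 0.59 ± 0.06 in truncation cells and by 0.48 ± 0.06 in WT cells. None of the 18 genes had a called interaction, beside 5.69% of all tested genes, which is no result about the list.

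The 6 tested genes nearest to OTUD5 on chromosome X were PQBP1, SLC35A2 and PIM2 on one side and KCND1, GRIPAP1 and TFE3 on the other. GRIPAP1 fell by 0.81 ± 0.07 on the log2 scale in truncation cells and fell by 0.65 ± 0.07 in WT cells after OTUD5 siRNA. SLC35A2, the UDP-galactose transporter, rose by 0.25 ± 0.07 in truncation cells and by 0.28 ± 0.07 in WT cells. KCND1, a potassium channel gene, had a value of 0.24 ± 0.14 in truncation cells (SE, adjusted p = 0.151) and fell by 0.78 ± 0.14 in WT cells (SE, adjusted p = 3.96e-05), with an interaction of 1.02 ± 0.20 (SE, adjusted p = 0.00269). PQBP1, PIM2 and TFE3 were not called for the siRNA in either genotype.

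Over the 16 libraries, the log2 CPM profiles most like that of OTUD5 among 12316 genes whose mean log2 CPM reached 1 were those of RNF167, ZNF512, KLHDC3, RELL2 and ADIPOR1, with Pearson's r of 0.990 to 0.993. The most opposite profiles were those of TMEM43, MEF2C, ARRDC3, ZDHHC9 and CCDC149, with r of -0.993 to -0.988. These r are descriptions, since the libraries fall into siRNA and scramble clusters and share those groups. RNF167 averaged 43.2 ± 1.39 CPM in truncation OTUD5 siRNA, 123.9 ± 4.26 CPM in truncation scramble, 46.5 ± 4.63 CPM in WT OTUD5 siRNA and 125.8 ± 6.64 CPM in WT scramble (SD, n = 4).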

How the data were processed

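Per the labels' protocols, RNA was purified with a silica column kit and libraries were made by a commercial vendor with a Nextera-XT-based method. The authors deposited raw counts per Ensembl gene, in which every entry named a gene, and a table of signal values, TMM-scaled CPM, which equalled CPM recomputed from the deposited counts to a relative difference of 5e-15. Per the submitters' processing notes the build was hg38 and the tools included STAR 2.7.3a, limma, edgeR and DESeq2. The sources used here do not give the counting program, the annotation or whether strand was used.

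Levels are the authors' TMM-scaled CPM. Lengths per kilobase are the union of GENCODE exons on GRCh38. Tests used the raw counts with edgeR 4.0.16 (R 4.3.3): filterByExpr over the 4 groups, 17104 genes, TMM, a quasi-likelihood fit with 1 coefficient per group over all 16 libraries (12 residual degrees of freedom, biological coefficient of variation 7.25%). The tests were two-sided, for 5 comparisons, each with Benjamini-Hochberg adjustment over all tested genes; calls needed an adjusted p below 0.05. The SE of a log2 fold change is its size over the square root of F. A value after ± is an SD beside a CPM or percent and an SE beside a log2 fold change. Libraries were grouped by library name, genotype and treatment labels. The titles call the 4 libraries of each group biological replicates, and how the cultures were separated is not described, so a p-value here rests on the spread of these libraries. No pair held identical counts (chi-square per degree of freedom 2.92 to 23.7), and each counts as 1 replicate. Low counts limit the precision of genes at low levels.

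The members and lists were chosen with earlier results of these data known. Named genes were all members and other OTU genes, the 3 called genes of largest change per list and siRNA comparison, the 3 tested genes on each side of OTUD5, and the 5 most and 5 least alike profiles. The fit was run on simulated data with 200 changed genes in a single group at a time. Far more genes were called in the siRNA and genotype comparisons, so that simulation does not cover changes this wide. Alternatives were upper-quartile and RLE scaling, DESeq2 1.42.0, limma 3.58.1 (voom, and trend on the deposited CPM with a pseudocount of 0.5), no filter, only the 2 groups compared, a replicate block and each library left out. Motifs were searched in RefSeq promoter windows, which 9 of the 10 members have. Sequences of the siRNAs were not used here.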

Additional observations from a re-analysis of the deposited data

Results flagged for a closer look

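The OTUD3 response to OTUD5 siRNA differed between the genotypes by a test of the difference itself, with 0.38 on the log2 scale (0.3789, truncation minus WT, edgeR interaction, adjusted p = 0.016). In 4 of 40 pairs of a member and a group, 1 library stood apart from the other 3 by a gap that, divided by the range, passed Dixon's 95% critical value for 4 samples, and chance alone flags about 1 in 20 groups. OTUD6B had its highest truncation OTUD5 siRNA value, 19.07 CPM, in replicate 3. YOD1 had its lowest truncation OTUD5 siRNA value, 32.78 CPM, in replicate 4. YOD1 had its highest WT OTUD5 siRNA value, 48.86 CPM, in replicate 2, the library that also differed most from its group over all genes. YOD1 had its highest WT scramble value, 41.52 CPM, in replicate 3.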

How the results depend on the processing

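The siRNA calls of OTUD5, OTUD1, OTUD6B, OTUD7B and OTUB2 in both genotypes and of OTUD3 in WT cells, the genotype calls of OTUD6B under both siRNAs and of OTUD3 after scramble, and the OTUD3 interaction were kept with their direction under every alternative run. OTUD5 ranged from -2.22 to -2.10 in truncation cells and from -2.18 to -2.07 in WT cells. The number of members called after OTUD5 siRNA stayed within 7 to 8 in truncation cells and 6 to 8 in WT cells. Between genotypes after OTUD5 siRNA it was 1 to 3 when 1 library was left out and 1 without WT OTUD5 siRNA replicates 2 and 3, an alternative chosen after seeing the data, and after scramble it stayed within 2 to 3. The replicate numbers pair no samples by the labels: same-numbered libraries had correlations of their deviations from -0.241 to 0.369, of which 9 of 24 were over 0.1, and 6 of 16 libraries correlated best with their own number. With a replicate block 7, 7, 3, 2 and 1 members were called for the siRNA in truncation cells, the siRNA in WT cells, the genotype after OTUD5 siRNA, the genotype after scramble and the interaction, as without it. Values that changed sign were all uncalled, and the cause was not tested. Upper-quartile scaling gave 0.03 for YOD1 (0.0302) and 0.0347 for ALG13 for the siRNA in truncation cells and 0.024 for the OTUD5 interaction. For ALG13 and the siRNA in WT cells, limma on the deposited CPM gave -0.0002. Without WT OTUD5 siRNA replicates 2 and 3 the siRNA in WT cells gave 0.013 for OTUB1, -0.1017 for YOD1 and -0.0251 for ALG13, and the YOD1 interaction was 0.0516. With 1 library left out, the siRNA in WT cells ranged from -0.0718 to 0.1005 for YOD1 and from -0.0129 to 0.0308 for ALG13 (with -0.0062), and the siRNA in truncation cells ranged from -0.003 to 0.0715 for OTUD4. The genotype after scramble ranged from -0.0436 to 0.0186 for OTUD7B, which also gave 0.0117. The genotype after OTUD5 siRNA ranged from -0.0042 to 0.1046 for OTUD5, from -0.0568 to 0.1766 for OTUD1 (with -0.0481 and -0.0402), from -0.0255 to 0.0741 for OTUD4 (with -0.0072) and from -0.0707 to 0.0393 for OTUB1 (with 0.0067). The interaction ranged from -0.0916 to 0.0168 for OTUD5 and from -0.1451 to 0.0447 for YOD1. Without the filter, ZRANB1 was not called for the siRNA in WT cells (adjusted p = 0.0879) or between genotypes after OTUD5 siRNA (adjusted p = 0.0575), and the OTUD7A interaction was called (adjusted p = 0.0371). With limma on the deposited CPM, ZRANB1 was not called for the siRNA in WT cells (adjusted p = 0.0594). OTUD1 was called lower between genotypes after scramble when those 2 groups were fitted alone (-0.25, adjusted p = 0.028), and VCPIP1 higher for the siRNA in truncation cells with upper-quartile scaling (adjusted p = 0.0173). Over all genes 1661 interactions were called without WT OTUD5 siRNA replicate 2 and 1642 without replicates 2 and 3, against 974. No scaling moved the median of all genes by more than 0.06. OTUD1, OTUB2, OTUD7A and MINDY1 rest on few counts, which limits their precision.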
